A study of Homo sapiens with 6 samples.

Results

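The Arp2/3 complex and WIPF2 were followed in a transcriptome of PANC-1 cells treated with maslinic acid. The 10 member genes were the 9 genes for the subunits of the complex that carry these names (ACTR2, ACTR3, ARPC1A, ARPC1B, ARPC2, ARPC3, ARPC4, ARPC5 and ARPC5L) and WIPF2. They were taken by gene symbol from a table of 58825 gene rows, in which each symbol had a single row, and all 10 were among the 17774 genes tested, those whose FPKM (fragments per kilobase of gene, scaled to the depth of the sample) averaged 0.1 or more. The set was selected on measured values: ARPC5 and WIPF2 are on the study's own list of differentially expressed genes from these samples, so their differences are given below as a description, with no test. The other 8 subunit genes were tested.

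PANC-1 is a human cell line from a pancreatic duct carcinoma, and maslinic acid (MA) is a plant triterpenoid. The MA PANC-1 group held 3 samples of cells given 40 μM MA for 24 h, and the PANC-1 group held 3 samples labelled untreated. The labels do not say whether the untreated cultures received a solvent, while the study's methods name dimethyl sulfoxide as the control treatment of its cultures. The 3 samples of a group are called biological replicates in the study's methods, all from the same cell line. Total counts per sample lay between 56978375 and 70275355. Of the duct and simple epithelium markers, KRT18 and KRT8, keratins of simple epithelia, were at 278 to 338 and 141 to 225 FPKM. KRT7 was at 1.40 to 2.19 FPKM and KRT19 at no more than 0.109 FPKM. SOX9, a duct cell regulator, had 12.6 to 14.5 FPKM in MA PANC-1 and 16.6 to 18.2 FPKM in PANC-1. None of the 7 acinar and endocrine markers and none of the 4 endothelial markers reached a mean FPKM of 0.1. Of the 5 fibroblast markers COL1A1 was the highest, at 2.64 to 5.96 FPKM, LUM was at 0.351 to 0.616 FPKM, COL1A2 averaged 0.180 FPKM and was listed without reads in 3 samples, and DCN and PDGFRA stayed under 0.1 FPKM. Of the 5 leukocyte markers CD68 alone passed that mean, at 25.6 to 40.9 FPKM, while PTPRC averaged 0.0021 FPKM. The sample MA PANC-1 2 stood apart from the others on the first principal component of all genes, at -40.0 against -8.71 to 19.3 for the other 5 samples, so values are given with and without it where it matters.

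The Arp2/3 complex starts new actin filaments as branches on the side of existing ones, and so builds the branched networks of lamellipodia, of endocytic sites and of moving vesicles. ACTR2 and ACTR3 are actin-related proteins that act as the first 2 units of the daughter filament. The ARPC subunits hold them and bind the mother filament. The complex is nearly inactive until a nucleation promoting factor of the WASP or WAVE kind binds it, and WIPF2 belongs to the WIP family, whose members bind actin and the WASP-type factors. The complex has 7 subunits, and ARPC1A and ARPC1B, like ARPC5 and ARPC5L, are paralogs that fill the same place in it.

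The promoters of WIPF2, ARPC5 and ACTR3 are shown because these genes had the largest differences between the groups among the 10. Each sequence holds the 250 bases before the RefSeq start (GRCh38.p14), read on the strand of the gene. Capitals mark the letters of 4 motifs, each searched on both strands. The GC box was searched as GGGCGG. The CCAAT box was searched by the letters of its name. The core bound by ETS factors was searched as CGGAAG. That of the factor NRF1 was searched as GCGCATGCG. The TATA box was searched as TATAAA.
WIPF2, chr17:40219054-40219303, plus strand: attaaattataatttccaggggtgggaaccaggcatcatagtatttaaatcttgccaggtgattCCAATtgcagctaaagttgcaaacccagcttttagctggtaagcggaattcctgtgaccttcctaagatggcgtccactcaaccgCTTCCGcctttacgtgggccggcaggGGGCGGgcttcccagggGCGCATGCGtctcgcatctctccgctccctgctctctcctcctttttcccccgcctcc
ARPC5, chr1:183635784-183636033, minus strand: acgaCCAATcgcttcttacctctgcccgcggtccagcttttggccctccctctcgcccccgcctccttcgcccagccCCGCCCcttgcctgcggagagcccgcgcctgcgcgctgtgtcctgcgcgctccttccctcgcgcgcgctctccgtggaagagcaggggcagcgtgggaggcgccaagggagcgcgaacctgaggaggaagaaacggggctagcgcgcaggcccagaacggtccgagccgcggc
ACTR3, chr2:113889684-113889933, plus strand: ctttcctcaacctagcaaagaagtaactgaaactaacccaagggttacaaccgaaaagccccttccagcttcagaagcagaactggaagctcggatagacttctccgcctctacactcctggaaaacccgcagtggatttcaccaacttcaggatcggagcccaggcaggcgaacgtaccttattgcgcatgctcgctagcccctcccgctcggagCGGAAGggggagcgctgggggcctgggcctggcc
The WIPF2 window held the letters of a GC box, a CCAAT box, an ETS core and an NRF1 core. The ARPC5 window held a GC box and a CCAAT box, and the ACTR3 window held an ETS core alone. A RefSeq promoter was found for 9 of the 10 genes, and 7 of the 9 held GC box letters, against 42.6% of 35116 promoter windows of the same length. The CCAAT letters stood in 5 of the 9 (32.0% of all windows), the ETS letters in 6 (16.5%), the NRF1 letters in 2, ARPC1A and WIPF2 (1.64%), and the TATA letters in 0 (10.7%). The share of G and C letters ran from 54% (WIPF2) to 73.6% (ARPC5L) in these windows, beside a median of 58% for all windows. WIPF2 and ACTR3 (57.6%) were below that median and the others above it. The motif shares were not adjusted for this. Such matches describe the sequence and are not measured binding sites.

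In untreated PANC-1 cells the subunit genes were expressed at different levels, and WIPF2 was far below all of them. ACTR2 (chromosome 2, 65227753 to 65271253) had the highest level, 134 ± 5.64 FPKM (mean ± SD, n = 3). ARPC1A (chromosome 7, 99325898 to 99366262), a propeller-shaped subunit that contacts the activating factors, followed with 81.5 ± 6.78 FPKM. ARPC3 (chromosome 12, 110434823 to 110450422) had 46.5 ± 1.68 FPKM. These 3 genes did not overlap with each other or with any lower gene in any PANC-1 sample. Below them ARPC1B (chromosome 7, 99374249 to 99394814) had 34.0 ± 11.8 FPKM, ARPC2 (chromosome 2, 218217141 to 218254110) 31.2 ± 3.59 FPKM and ARPC4 (chromosome 3, 9792495 to 9807726) 26.7 ± 7.69 FPKM. ARPC2 and ARPC4 form the core that clamps the complex to the mother filament. The ranges of these 3 genes overlapped, so their order was not set beyond the spread of the samples. ACTR3 (chromosome 2, 113889960 to 113962596) had 21.6 ± 0.632 FPKM, ARPC5L (chromosome 9, 124862130 to 124877733) 18.5 ± 0.670 FPKM and ARPC5 (chromosome 1, 183620846 to 183635783) 14.2 ± 1.20 FPKM. The last 3 did not overlap with each other. The ranges of ARPC4 (17.8 to 31.8 FPKM) and ARPC1B (20.6 to 42.7 FPKM) both took in that of ACTR3 (21.0 to 22.2 FPKM), and ARPC4 also overlapped with ARPC5L (17.7 to 19.1 FPKM), so the place of ARPC4 against these genes was not set either. WIPF2 (chromosome 17, 40219304 to 40284136) had 1.52 ± 0.354 FPKM.

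**Figure D1:**
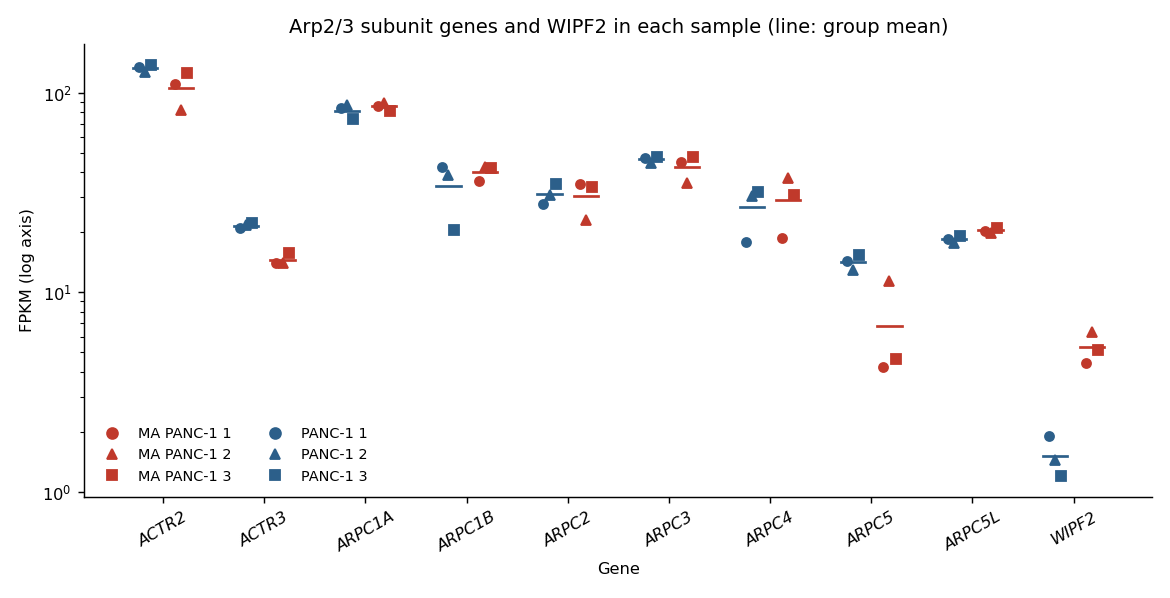
FPKM on a log axis for the 9 Arp2/3 subunit genes and WIPF2 in each of the 6 samples, with blue symbols for PANC-1, red symbols for MA PANC-1, a symbol shape for each replicate number and a line at the group mean. WIPF2 lies between 1.20 and 1.90 FPKM in PANC-1 and between 4.44 and 6.30 FPKM in MA PANC-1, and ARPC5 in the sample MA PANC-1 2 (11.4 FPKM) sits close to the 3 PANC-1 samples.

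Part of this order depends on the length by which the reads of each gene were divided. For the 10 genes the deposited FPKM values fitted a division by a constant multiple, 1.18 to 1.20, of the merged length of all annotated exons in GENCODE release 29. That length was 12049 bases for ACTR3, whose longest principal transcript has 6718 bases, and 6562 bases for ARPC2, whose longest principal transcript has 1605 bases. With the principal transcript as the length, ARPC3 (139 ± 5.02 FPKM) and ARPC2 (127 ± 14.7 FPKM) moved next to ACTR2 (150.5 ± 6.36 FPKM), and ARPC1A came after them, with 107 ± 8.89 FPKM. ARPC5L (26.6 ± 0.964 FPKM), ARPC5 (21.0 ± 1.77 FPKM) and WIPF2 (1.65 ± 0.385 FPKM) kept the last places on both scales. Comparisons of a gene with itself between the groups are not touched by this choice.

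WIPF2 had the largest difference of the 10 genes. Its level was 4.44, 6.30 and 5.14 FPKM after MA and 1.90, 1.45 and 1.20 FPKM in untreated cells. Every treated sample was above every untreated one. The mean in MA PANC-1 was 349% of that in PANC-1, and the fitted log2 fold change was 1.85 ± 0.22 (SE). The level in MA PANC-1 2 was the highest of the 3, and without it the log2 fold change was 1.65 ± 0.20. In each sample WIPF2 was below every subunit gene other than ARPC5. On the deposited scale ARPC5 was lower than WIPF2 in MA PANC-1 1 and MA PANC-1 3, although its mean in MA PANC-1 was higher (6.75 against 5.29 FPKM). The order in those samples depends on the gene length. Principal transcripts as lengths multiply the values of ARPC5 by 1.47 and those of WIPF2 by 1.09. The means in MA PANC-1 were then 9.94 ± 5.98 FPKM for ARPC5 and 5.75 ± 1.02 FPKM for WIPF2. In RNA from a whole culture, a different level in every cell and a different number of cells that express a gene cannot be told apart.

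ARPC5, the subunit that ties ARPC1 and the rest of the complex together, was the member with the largest difference in the opposite direction. It had 4.21, 11.4 and 4.61 FPKM in MA PANC-1 and 14.3, 13.0 and 15.4 FPKM in PANC-1. The groups did not overlap, but the treated samples were split, with MA PANC-1 2 at 11.4 FPKM near the lowest PANC-1 sample (13.0 FPKM) and the other 2 well below. The mean in MA PANC-1 was 47.5% of that in PANC-1, with a log2 fold change of -1.01 ± 0.40 (SE). The size of the difference depended on that sample. Without MA PANC-1 2 the mean was 31.0% of PANC-1 and the log2 fold change was -1.69 ± 0.10. Leaving out MA PANC-1 1 or MA PANC-1 3 instead gave -0.75 ± 0.38 or -0.78 ± 0.41. These values are for mRNA, and the study lists the ARPC5 protein as higher after MA but not significantly so.

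Of the 8 subunit genes that were tested, 1 was lower and 0 were higher in MA PANC-1 at an unadjusted p under 0.05 (edgeR quasi-likelihood test). Over all 17774 genes the same rule called 5.86% lower and 5.37% higher, and 1 gene of 8 does not set the subunits apart from that background. No subunit gene had an adjusted p under 0.05 in this test, which 0.0394% of all genes passed. With DESeq2, by contrast, ACTR3 had an adjusted p of 0.000657, under a rule that called 1.8% of the 14623 genes to which DESeq2 gave an adjusted p. The median log2 fold change of the 8 genes was 0.056, beside -0.0017 for all genes tested.

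The lower gene was ACTR3, the larger of the actin-related pair. It had 14.0, 14.0 and 15.8 FPKM in MA PANC-1 and 21.0, 21.7 and 22.2 FPKM in PANC-1. The groups were well apart, and each was tight, with a coefficient of variation of 7.22% in MA PANC-1 and 2.92% in PANC-1. The mean in MA PANC-1 was 67.5% of that in PANC-1, and the log2 fold change was -0.53 ± 0.08 (SE, edgeR unadjusted p = 0.000315, adjusted p = 0.174), which ranked 32 among all genes. Under 18 other settings the log2 fold change stayed negative with an unadjusted p of at most 0.0025, and the adjusted p ran from 0.000657 to 0.578. It fell under 0.05 in 1 of the 18, the DESeq2 fit.

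ACTR2, its partner, had 111, 82.6 and 125 FPKM in MA PANC-1 and 134, 128 and 139 FPKM in PANC-1. All 3 treated samples were below all 3 untreated ones, but the treated samples were spread widely and MA PANC-1 3 almost reached the lowest control. The log2 fold change was -0.30 ± 0.13 (SE, unadjusted p = 0.052, adjusted p = 0.449), and it was -0.18 ± 0.08 without MA PANC-1 2. ARPC5L, the paralog of ARPC5, went the other way, with 20.3, 19.9 and 21.1 FPKM in MA PANC-1 and 18.5, 17.7 and 19.1 FPKM in PANC-1. Its groups did not overlap, the log2 fold change was 0.18 ± 0.08 (SE) and the unadjusted p was 0.061. Among the 8 tested genes, 2 were thus lower without overlap between the groups (ACTR2 and ACTR3) and 1 was higher (ARPC5L), while 11.1% of all genes were lower and 8.79% higher in this way.

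The remaining 5 subunit genes overlapped between the groups and gave unadjusted p-values of 0.307 to 0.993. ARPC2 had 35.1, 23.0 and 33.6 FPKM in MA PANC-1 and 27.8, 30.7 and 35.0 FPKM in PANC-1, a log2 fold change of 0.00 ± 0.15. ARPC3, a small subunit that contacts ACTR3, had 45.2, 35.3 and 47.7 FPKM in MA PANC-1 and 47.2, 44.5 and 47.6 FPKM in PANC-1, a log2 fold change of -0.09 ± 0.10. In ACTR2, ARPC2 and ARPC3 alike, MA PANC-1 2 was the lowest of the 6 samples. Without it the log2 fold change was 0.14 ± 0.11 for ARPC2 and -0.003 ± 0.064 for ARPC3. ARPC1A had 86.2, 89.3 and 81.3 FPKM in MA PANC-1 and 84.1, 86.6 and 73.8 FPKM in PANC-1.

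**Figure D2:**
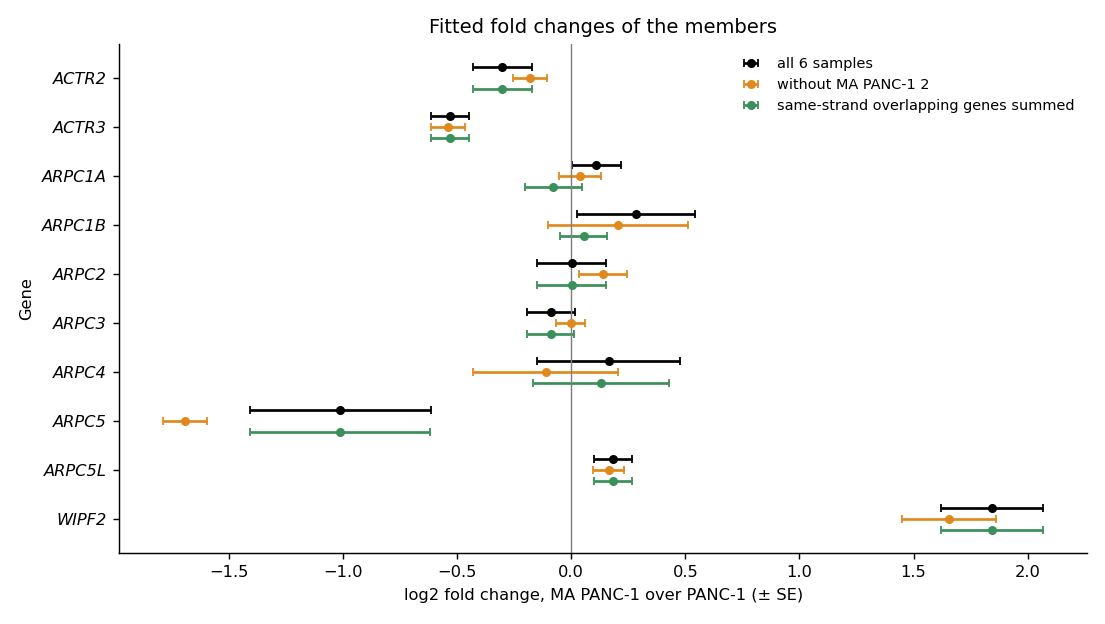
Fitted log2 fold changes of MA PANC-1 over PANC-1 (edgeR, points with SE bars) for the 10 genes with all 6 samples (black), without MA PANC-1 2 (orange) and with same-strand overlapping genes added to each member (green). ARPC5 moves from -1.01 to -1.69 without MA PANC-1 2, ACTR3 stays near -0.53, and WIPF2 stays above 1.6.

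ARPC1B and ARPC4 share exons with read-through genes annotated on the same strand, so the counting could split their reads. ARPC1B had 36.3, 42.4 and 42.3 FPKM in MA PANC-1 and 42.7, 38.7 and 20.6 FPKM in PANC-1. The sample PANC-1 3 alone was low. The read-through gene AC004922 (chromosome 7, 99325879 to 99394653), which runs over ARPC1A and ARPC1B, had 5161 counts in that sample and 17 to 117 counts in the other 5, and ARPC1B had 5821 counts there and 9816 to 14302 elsewhere. Added together, ARPC1B and AC004922 had 185 CPM (counts scaled to the same total in each sample) in PANC-1 3, inside the range of 174 to 204 in the other samples. The log2 fold change of ARPC1B was 0.28 ± 0.26 (SE) alone and 0.05 ± 0.10 with AC004922 added. For ARPC1A it was 0.11 ± 0.11 alone and -0.08 ± 0.13 with AC004922 added. That fit added the same AC004922 counts to ARPC1A and to ARPC1B, so the 5161 counts of PANC-1 3 entered both genes. It was the only setting in which the ARPC1A value was negative.

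ARPC4 had 18.6, 37.3 and 30.9 FPKM in MA PANC-1 and 17.8, 30.4 and 31.8 FPKM in PANC-1. The low sample was number 1 in each group, at little more than 0.5 of the level of the others. The log2 fold change was 0.16 ± 0.31 (SE). It was -0.11 ± 0.32 without MA PANC-1 2, -0.06 ± 0.30 without PANC-1 1 and 0.41 ± 0.27 without MA PANC-1 1. With the sample number as a block in the fit it was 0.14 ± 0.11 (edgeR unadjusted p = 0.263). Its sign was therefore not set. The read-through gene ARPC4-TTLL3 (chromosome 3, 9793082 to 9813351), which joins ARPC4 to the tubulin ligase gene next to it and is itself on the study's list, was counted 132, 163 and 150 times in MA PANC-1 and 497, 237 and 249 times in PANC-1. These are small beside the 4554 to 10296 counts of ARPC4, and with them added the sample low in each group was still number 1, at 82.2 and 83.9 CPM against 135 to 163 in the other 4. TADA3, which overlaps the start of ARPC4 on the opposite strand, was at 28.7 to 39.0 FPKM and was lowest in the samples with number 3. Whether the counting used the strand is not stated, which also bears on ARPC1B and its opposite-strand neighbour PDAP1 (46.7 to 51.1 FPKM).

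**Figure D3:**
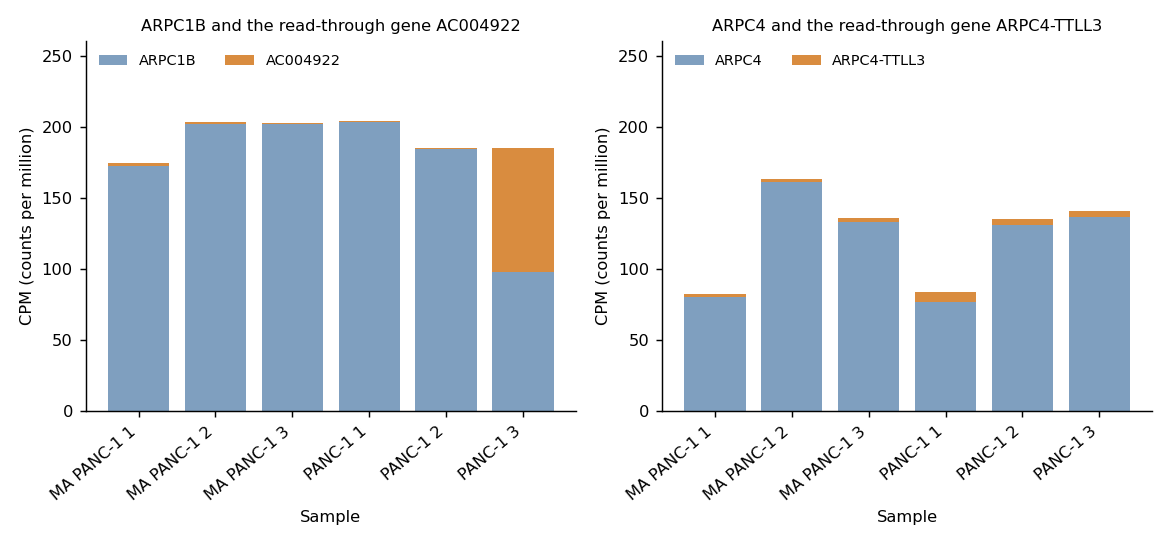
CPM in each sample, stacked, for ARPC1B with AC004922 (left) and for ARPC4 with ARPC4-TTLL3 (right). The low ARPC1B bar of PANC-1 3 is filled up by AC004922 to 185 CPM, whereas ARPC4 stays low in MA PANC-1 1 (82.2) and PANC-1 1 (83.9) with ARPC4-TTLL3 added.

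The balance of the paralogs was followed as a share of their summed FPKM. ARPC5L made up 82.9%, 63.6% and 82.1% of ARPC5 plus ARPC5L in MA PANC-1 and 56.5%, 57.8% and 55.4% in PANC-1. All treated samples were higher, with MA PANC-1 2 again close to the controls. The means were 76.2 ± 10.9% and 56.5 ± 1.20% (SD, n = 3 each), a difference of 19.6 percentage points that was 25.9 without MA PANC-1 2. As ARPC5 enters this share it is a description. With principal transcripts as lengths the difference was 19.8 percentage points. ARPC1B made up 29.6%, 32.2% and 34.2% of ARPC1A plus ARPC1B in MA PANC-1 and 33.7%, 30.9% and 21.8% in PANC-1. The groups overlapped, and the difference of 3.21 percentage points gave p = 0.60 in an exact two-sided permutation test, in which 3 samples against 3 cannot go below 0.1. With AC004922 counted as ARPC1B the difference was -0.91 percentage points.

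**Figure D4:**
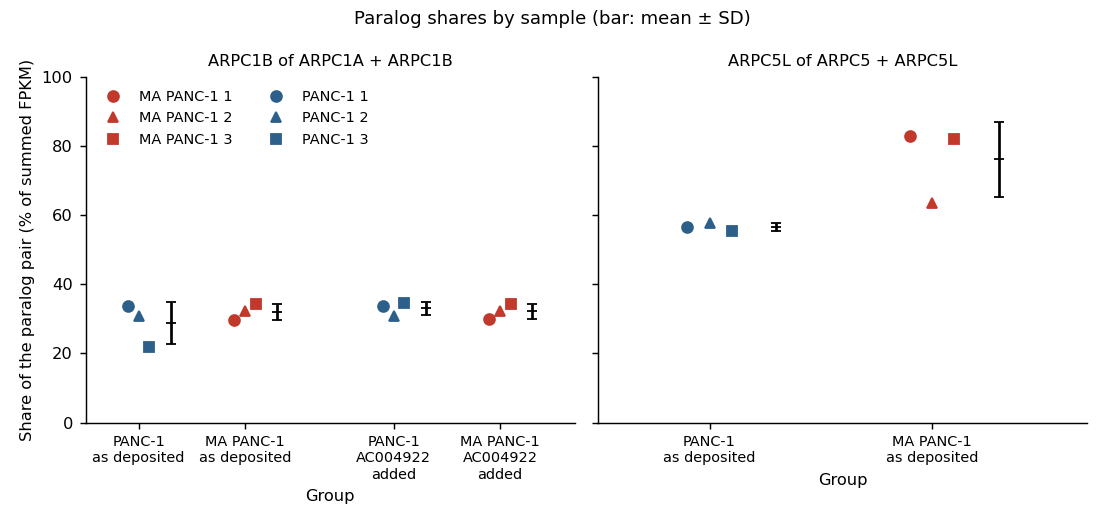
Share of ARPC1B (left) and of ARPC5L (right) in the summed FPKM of the paralog pair, in percent, for each sample, with black bars for the group mean ± SD. For ARPC1B the shares are plotted as deposited and with AC004922 added. ARPC5L lies at 82.9% and 82.1% in 2 MA PANC-1 samples and at 63.6% in MA PANC-1 2, above 55.4% to 57.8% in PANC-1.

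ACTR3B, an ACTR3 paralog expressed in brain, had 1.99 ± 0.242 FPKM in MA PANC-1 and 1.69 ± 0.288 FPKM in PANC-1, under the level of ACTR3 in every sample, and its log2 fold change was 0.27 ± 0.17 (SE, unadjusted p = 0.158). ACTR3C did not reach a mean FPKM of 0.1. In the WIP family WIPF1 had 0.955 ± 0.135 FPKM in MA PANC-1 and 0.922 ± 0.031 FPKM in PANC-1, with an unadjusted p of 0.603, and WIPF3 was not tested for its low level. On the deposited FPKM scale WIPF2 was above WIPF1 in every sample, by the least in PANC-1 3 (1.20 against 0.924 FPKM), and the order was not computed for other gene lengths.

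Of 9 tested nucleation promoting factors, which switch the complex on, 0 were higher and 0 lower at an unadjusted p under 0.05, beside 5.37% higher and 5.86% lower over all genes, so that 0 of 9 does not set them apart from the background. WASF2 (a WAVE protein that drives lamellipodia) and CTTN (cortactin, which stabilises branches) had the highest levels. WASF2 had 43.4, 46.1 and 39.9 FPKM after MA and 42.9, 48.0 and 40.3 FPKM without it. CTTN had 50.1, 45.6 and 48.4 FPKM after MA and 31.5, 48.0 and 36.5 FPKM without it, with overlapping groups, a log2 fold change of 0.35 ± 0.16 (SE) and an unadjusted p of 0.060. WASL, the widely expressed WASP relative to which WIP proteins bind, had 5.63 ± 0.757 FPKM in MA PANC-1 and 6.45 ± 0.611 FPKM in PANC-1 (unadjusted p = 0.233). Its blood cell relative WAS was at 0.090 to 0.553 FPKM. The other WAVE proteins, WASF1 and WASF3, had log2 fold changes of -0.04 and -0.19. WHAMM, which acts at inner membranes, and JMY had -0.15 and -0.34, and WASHC1, the factor of endosomes, had -0.01, with unadjusted p-values of 0.098 to 0.949 among these 5.

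**Figure D5:**
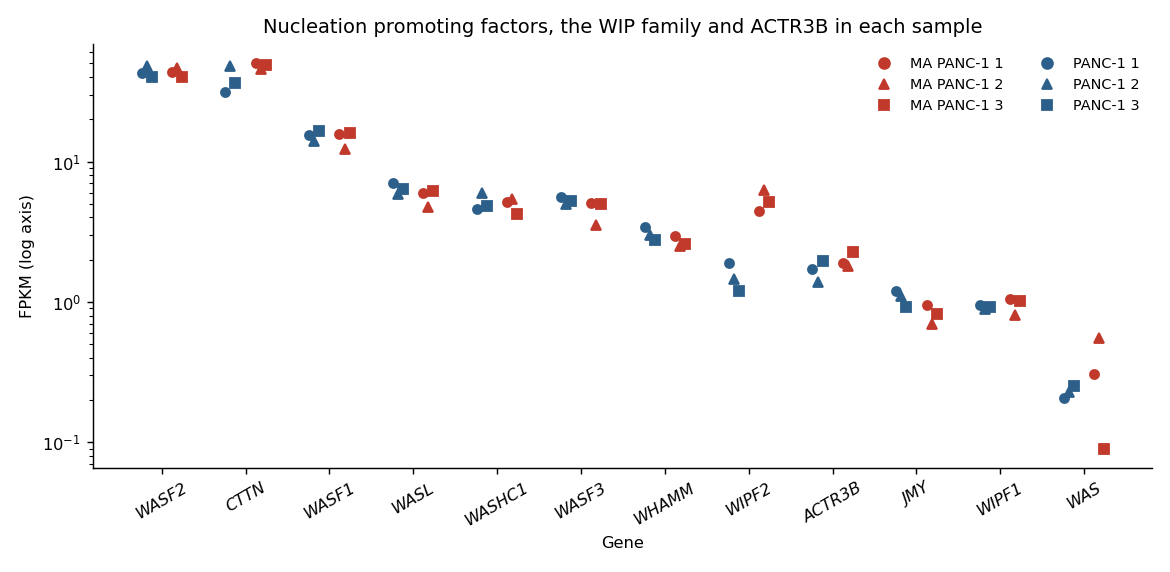
FPKM on a log axis in each sample for 9 nucleation promoting factors, for WIPF1 and WIPF2 of the WIP family and for ACTR3B, with blue symbols for PANC-1 and red symbols for MA PANC-1. WIPF2 is the gene in which the 3 red symbols (4.44 to 6.30 FPKM) are all above the 3 blue ones (1.20 to 1.90 FPKM), while the symbols of the 9 factors overlap.

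Over 9 lists of other actin nucleation and turnover genes (78 genes, 71 tested) 3 genes were higher and 5 lower at an unadjusted p under 0.05, close to the shares over all genes (5.37% higher and 5.86% lower), and none had an adjusted p under 0.05. The median log2 fold change of the 71 genes was -0.01. Of the regulators upstream of the factors, BAIAP2, an adaptor between RAC1 and the WAVE proteins, had 3.69, 4.72 and 3.79 FPKM in MA PANC-1 and 3.06, 2.99 and 2.84 FPKM in PANC-1 (log2 fold change 0.50 ± 0.15, unadjusted p = 0.011). FNBP1, a membrane-bending protein that recruits WASL, had 15.6 ± 0.579 FPKM in MA PANC-1 and 13.8 ± 0.097 FPKM in PANC-1 (0.21 ± 0.08, unadjusted p = 0.025). RAC1, the most abundant of these 9 genes, had overlapping values of 120 to 135 FPKM. The third higher gene was CYFIP2 of the WAVE complex, at 0.509 ± 0.021 FPKM in MA PANC-1 and 0.337 ± 0.041 FPKM in PANC-1. BRK1, the most abundant gene of that complex, was at 162 ± 2.76 and 148 ± 2.00 FPKM, with an unadjusted p of 0.073.

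In the list of formins and other nucleators of unbranched filaments, 3 of the 15 tested genes were lower and 0 higher. The shares over all genes were 5.86% lower and 5.37% higher. FMNL2, a formin of protrusions, had 4.92, 4.02 and 5.98 FPKM in MA PANC-1 and 8.83, 8.03 and 7.92 FPKM in PANC-1. The groups were apart, with a log2 fold change of -0.70 ± 0.14 (SE, unadjusted p = 0.0013, adjusted p = 0.287). FHOD3 had 6.28 ± 0.222 FPKM in MA PANC-1 and 7.81 ± 0.499 FPKM in PANC-1 (unadjusted p = 0.021), and the weakly expressed FMN1 0.249 ± 0.028 and 0.434 ± 0.030 FPKM (unadjusted p = 0.0021). DIAPH1, the most abundant formin, was at 31.5 ± 2.48 and 29.5 ± 0.858 FPKM. The lists that follow hold few genes, and their counts of 1 or 0 stand beside the same shares of 5.86% lower and 5.37% higher over all genes. In the list of proteins that inhibit or disassemble branches CORO2B was the 1 lower gene of 10 (log2 fold change -0.63 ± 0.25, unadjusted p = 0.041), and CORO1B had 0.35 ± 0.21 with an unadjusted p of 0.134. Its FPKM was 20.7, 32.3 and 20.4 after MA and 19.7, 19.7 and 20.2 without it, so MA PANC-1 2 alone stood apart. CORO1B had the highest mean of that list over the 6 samples (22.2 FPKM) but was level with CORO1C (22.1 FPKM), which was above it in 4 of the 6. Among 15 actin turnover genes the capping protein gene CAPZA2 was the 1 lower gene (-0.70 ± 0.25, unadjusted p = 0.026), and TMSB10, which holds actin monomers, was at 3642 ± 180 and 3722 ± 116 FPKM. None of the 5 WASH complex genes passed in either direction. WASHC5, with the highest mean of them over the 6 samples (12.9 FPKM), had a log2 fold change of -0.09. WASHC2A (12.2 FPKM) was above it in MA PANC-1 2 and PANC-1 2. CYFIP2, FMN1, CORO2B and CAPZA2 are named because they complete these counts and were chosen after their values were seen.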

How the data were processed

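Polyadenylated RNA of 6 PANC-1 samples was sequenced in pairs with a strand-marking kit. The submitters' processing notes name cutadapt 1.9, HISAT2 2.0.4, StringTie 1.3.4d, edgeR and DESeq2, and the genome build is not given in the sources used here. Gene positions are as deposited and lie on GRCh38 by comparison with GENCODE release 29. The deposited start and end were those of release 29 for ACTR2, ACTR3, ARPC4, ARPC5L and WIPF2. They differed from it for ARPC1A, ARPC1B, ARPC2, ARPC3 and ARPC5, whose exon and transcript lengths were also taken from release 29. The authors deposited FPKM values, with 0.0001 for genes without reads, and whole-number expected counts per gene. The count totals exceed the numbers of valid reads that the study lists, so that a count is not a single fragment. Columns of the authors' own comparisons were not used.

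Genes averaging 0.1 FPKM or more were fitted with edgeR 4.0.16 (TMM factors, quasi-likelihood test, Benjamini-Hochberg adjustment over all genes, R 4.3.3). Fold changes compare MA PANC-1 with PANC-1, and the SE is that of the log2 fold change. DESeq2 1.42.0, limma 3.58.1 on log2(FPKM + 0.1), other filters and factors, halved counts, a replicate block and the omission of each sample were alternatives, and the scripts were tested on simulated data. Named were the 10 members, same-strand overlapping genes, from each list genes with an adjusted p under 0.05 or up to 3 with an unadjusted p under 0.05, an average of 1 FPKM or more and groups that did not overlap, every promoting factor, WIP gene and ARP paralog over the filter, the most abundant gene of each list and the 5 genes most alike to ARPC5 and to WIPF2. The members and lists were chosen with earlier results of these data known. Precision rests on 3 samples a group.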

Additional observations from a re-analysis of the deposited data

How the results depend on the processing

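The member fold changes kept their direction, except that ARPC1A, ARPC2 and ARPC4, none of them past an unadjusted p of 0.05 in any setting, had either sign. ARPC1A was negative only where the AC004922 counts were added to both ARPC1A and ARPC1B. The 8 tested subunit genes kept their side of that threshold, except that ACTR2 passed it in 7 of 18 settings with a test (unadjusted p 0.013 to 0.131). ARPC5 and WIPF2 carried no test in any setting. Their log2 fold changes moved to 1.32 for WIPF2 with limma on log2(FPKM + 1) and to -1.69 for ARPC5 without MA PANC-1 2. On leaving out a sample the difference in share ran from -0.28 to 5.66 percentage points for ARPC1B and from 16.3 to 25.9 for ARPC5L. With ACTR2 counted, 2 of the 8 subunit genes were lower under upper-quartile factors, a mean FPKM of at least 1, no filter, halved counts, the replicate block and, added after seeing the data, limma on quantile-normalized values; leaving out a sample gave 1 to 2. The number of pathway genes higher was 5 with DESeq2, 6 with the replicate block and 1 with limma on log2(FPKM + 0.1) or log2(FPKM + 0.01); leaving out a sample gave 2 to 6 higher and 3 to 7 lower. Of all genes, 7 had an adjusted p under 0.05, against 263 with DESeq2, 12 at a mean FPKM of at least 1, 0 with the replicate block (edgeR, 2215 at an unadjusted p under 0.05) and 3 to 24 on leaving out a sample. An unadjusted p under 0.05 was reached by 1995 genes (1178 to 3213 on leaving out a sample), and with a fold of at least 2 or at most 0.5 by 342 genes, 44 with limma on log2(FPKM + 1), 93 at a mean FPKM of at least 1, 569 without a filter and 326 to 534 on leaving out a sample. Same-numbered samples deviated together with correlations of 0.061, 0.154 and 0.108, not all above 0.1, so the numbers were not taken as pairs, although each sample correlated best with its own number. The shares with overlapping counts could not be run as planned, because AC004922 overlaps both paralogs. The cause of these shifts was not tested.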

Other observations

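The 5 genes whose log2(FPKM + 0.1) followed that of WIPF2 most closely over the 6 samples, among 11470 genes averaging 1 FPKM or more, were COPS9 (Pearson r = 0.997), RIMKLA (0.994), VPS33A (0.990), CSAG1 (0.987) and DYNLL2 (0.985). Their differences between the groups were far smaller than that of WIPF2. COPS9, a subunit of the COP9 signalosome, had 10.4, 11.0 and 10.5 FPKM in MA PANC-1 and 9.09, 8.70 and 8.30 FPKM in PANC-1. The corresponding genes for ARPC5 were AL138759 (0.998), CHD8 (0.990), PRAG1 (0.990), SNORA6 (0.987) and TESMIN (0.983). In each of them MA PANC-1 2 was the treated sample nearest to the controls, as in ARPC5. SNORA6, a small nucleolar RNA, had 0.054, 4.57 and 0.027 FPKM after MA and 6.82, 6.21 and 5.56 FPKM without it, and AL138759 was listed without reads in MA PANC-1 1 and MA PANC-1 3 but had 1.22 FPKM in MA PANC-1 2. These genes were picked for their likeness over 6 samples, and the correlations carry no test.

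The deposited annotation gave 13 rows the term Arp2/3 protein complex, of which 12 were tested and 9 were the subunit genes described above. The other tested rows were ACTR3B and the read-through genes ARPC4-TTLL3 and AC004922. The read-through genes were also on the study's list, so their counts are given above with no test. Of 5 rows named as pseudogenes of a member, ARPC3P5 had the most counts, at most 55 in a sample, against at least 8171 for ARPC3.

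A few other genes of the actin lists, named after their values were seen, had a single sample, or a sample number, far from the rest. GRB2, the adaptor that brings WASL to receptors, had 29.4, 30.7 and 28.5 FPKM in MA PANC-1 and 8.75, 24.5 and 24.9 FPKM in PANC-1, so that the groups did not overlap and PANC-1 1 was far below the other controls (log2 fold change 0.64 ± 0.36, SE, edgeR unadjusted p = 0.115). PFN2, a profilin, had 14.3 FPKM in MA PANC-1 3 and 37.8 to 45.8 FPKM elsewhere. CORO1C, a coronin, was low in the samples with number 2, at 10.8 FPKM in MA PANC-1 and 11.3 FPKM in PANC-1 against 23.0 to 32.2 FPKM in the others, as ARPC4 was in the samples with number 1.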
